A study of Mus musculus with 120 samples.

Results

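CC011 is an inbred mouse line of the Collaborative Cross, a panel of recombinant strains bred from several founders. Liver RNA of CC011 on a fattening diet was compared with liver RNA of CC011 on a control diet. The 12 libraries labelled CC011 were taken from the 120 libraries and 10 strains of the series. They form 4 groups of 3 libraries: females on control diet (F control), females on the fattening diet (F HF/HS), males on control diet (M control) and males on the fattening diet (M HF/HS). The HF/HS diet, high in fat and sucrose, was given for 12 weeks, with 42% of energy from milkfat, 0.2% cholesterol and more than 30% sucrose. The control diet had matched ingredients, little fat and less sucrose. The labels give no ages and do not state whether each library is its own mouse, so the spread behind every p-value may be technical. All 12 are whole-liver samples of a single inbred line, and in bulk tissue fewer cells of a type and less RNA per cell cannot be told apart.

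The liver takes up dietary fatty acids, stores them as triglyceride in lipid droplets, burns them in mitochondria and peroxisomes, or exports them in lipoproteins. Fatty acids activate the nuclear receptor PPAR-alpha, which switches on genes of fatty acid oxidation. Cholesterol arriving with the diet holds SREBP factors in the endoplasmic reticulum, so the genes of cholesterol synthesis are transcribed less. Hepatocytes also make the acute-phase proteins, secreted in large amounts when interleukins signal infection or tissue injury, while many metabolic genes are turned down.

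Values are FPKM (fragments per kilobase of transcript and sequencing depth) that the authors rescaled, with a 75th percentile over all rows of 9.99 to 10.0 in each library. They are per length, so levels of different genes can be compared. Log2 differences are HF/HS minus control on log2(value + 1), given ± SE, and calls are those with adjusted p below 0.05 (limma, Benjamini-Hochberg over all genes tested). Of the table's genes, 11944 averaged 1 or more across the 12 CC011 columns and were tested. Absolute depth is unknown, but the spacing of the lowest values put the libraries' relative depth between 0.779 and 1.17 of their median. Hepatocyte markers, Alb included, summed to 33754 to 53264 in every library. Alb, which encodes serum albumin, was listed at 0 in all except F HF/HS 1. Its value is part of the sum of that library, 43296, which is therefore unlike the other sums. Without Alb, F HF/HS 1 had the lowest sum of the 12. Xist, made from the inactive X chromosome, and Y-linked genes separated the sexes without overlap. The summed Y-linked level was 2.33 in F HF/HS 2, 0.00999 to 0.319 in the other female libraries and 107 to 135 in males. The source of the level in F HF/HS 2 was not tested. The library F HF/HS 1 stood apart. It lay at least 2-fold (on the log2(value + 1) scale) above every other library in 261 genes and below every other library in 280 genes, while the other 11 libraries did so in 4 to 17 and in 0 to 21 genes. The labels name a total RNA kit with ribosomal RNA removal and an mRNA kit without saying which library had which. Of the listed RNAs that lack a poly(A) tail or stay in the nucleus, 9 were tested. The summed level of all those listed, tested or not, was 82872 in F HF/HS 1 and 83116 to 136845 in the other 11. Its correlation with the others was 0.827 to 0.922, against 0.896 to 0.972 among the other 11, and 107 genes reached the mean filter only through it. Results that rest on this library are given with and without it.

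With all 12 libraries and sex as a covariate, limma called 0 of 11944 genes for the diet (0%), and 417 had an unadjusted p under 0.05. Without F HF/HS 1 it called 2 genes (0.0167%), both higher on HF/HS, and 692 had an unadjusted p under 0.05. The pair was Mogat1, which makes diacylglycerol from monoacylglycerol on the way to triglyceride, and Sema5b, a semaphorin known from axon guidance. When the spread was estimated over the libraries of all 10 strains, the CC011 diet effect had 25 called genes (0.213%), 9 higher (0.0765%) and 16 lower (0.136%). Leaving out F HF/HS 1 there gave 40 (0.340%), 22 higher (0.187%) and 18 lower (0.153%). For the mean diet effect of the 9 other strains, which rests on many more libraries, 33.0% of 11763 genes were called. The counts of the strain and of the 9 others are not a comparison of effect sizes, since the number of libraries differs.

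Mogat1 (chr1:78511059-78538173 on mm10) had values of 1.58, 1.03 and 1.78 in F control and of 2.21, 11.2 and 6.58 in F HF/HS. In males it had 3.01, 1.40 and 1.63 on control and 7.37, 8.73 and 6.59 on HF/HS. The diet groups did not overlap within either sex, and F HF/HS 1 was the lowest HF/HS library, below M control 1. The difference was 1.49 ± 0.27 with all libraries (adjusted p = 0.48) and 1.73 ± 0.18 without F HF/HS 1 (adjusted p = 0.00914). In females the difference was 1.98 ± 0.26 without that library (adjusted p = 0.0145). The difference between the sexes was 0.09 ± 0.56 with all libraries (adjusted p = 0.964). That value includes F HF/HS 1, so it is not to be set against the female value without it. Sema5b had 3.03, 1.23 and 1.63 in F control, 0.148, 5.75 and 7.30 in F HF/HS, 0.919, 0.620 and 0.347 in M control and 3.39, 4.19 and 2.32 in M HF/HS. Its lowest value of all was in F HF/HS 1, and the other 5 HF/HS libraries lay above the controls of their sex. It rose by 1.39 ± 0.17 (adjusted p = 0.0278) once F HF/HS 1 was left out.

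Other genes of fatty acid uptake and storage were shown after their values were seen. Cd36, the membrane protein that takes up fatty acids, had 90.2, 60.4 and 84.8 in F control and 158.2, 179.5 and 155.6 in F HF/HS. In males it had 46.8, 20.6 and 22.8 on control and 86.7, 77.3 and 35.4 on HF/HS. Females did not overlap, and in males M HF/HS 3 lay below M control 1. The difference was 1.10 ± 0.24 (adjusted p = 0.527), nearly the same without F HF/HS 1, and it passed with the spread of all strains (adjusted p = 0.00203, or 0.00153 without F HF/HS 1) and with library weights. Pparg, the nuclear receptor that drives fat storage, had 6.02, 8.05 and 5.12 in F control against 9.73, 11.2 and 8.66 in F HF/HS, and 3.21, 2.84 and 3.54 in M control against 3.87, 3.87 and 3.85 in M HF/HS. The diet groups of Pparg did not overlap in either sex, but the gene was not called for the diet effect. Over the list of lipid droplet and triglyceride storage genes, 26 of 27 members were tested and their median difference was 0.09, and 0.19 without F HF/HS 1. In males 5 of the 26 (19.2%) lay with every HF/HS library above every control, against 5.23% of all genes tested. This held for 10 members in females without F HF/HS 1, beside 14.3% of all genes. In both sexes at once it held for Mogat1, Pparg and Bscl2, the seipin of lipid droplets, beside 0.795% of all genes.

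**Figure D1:**
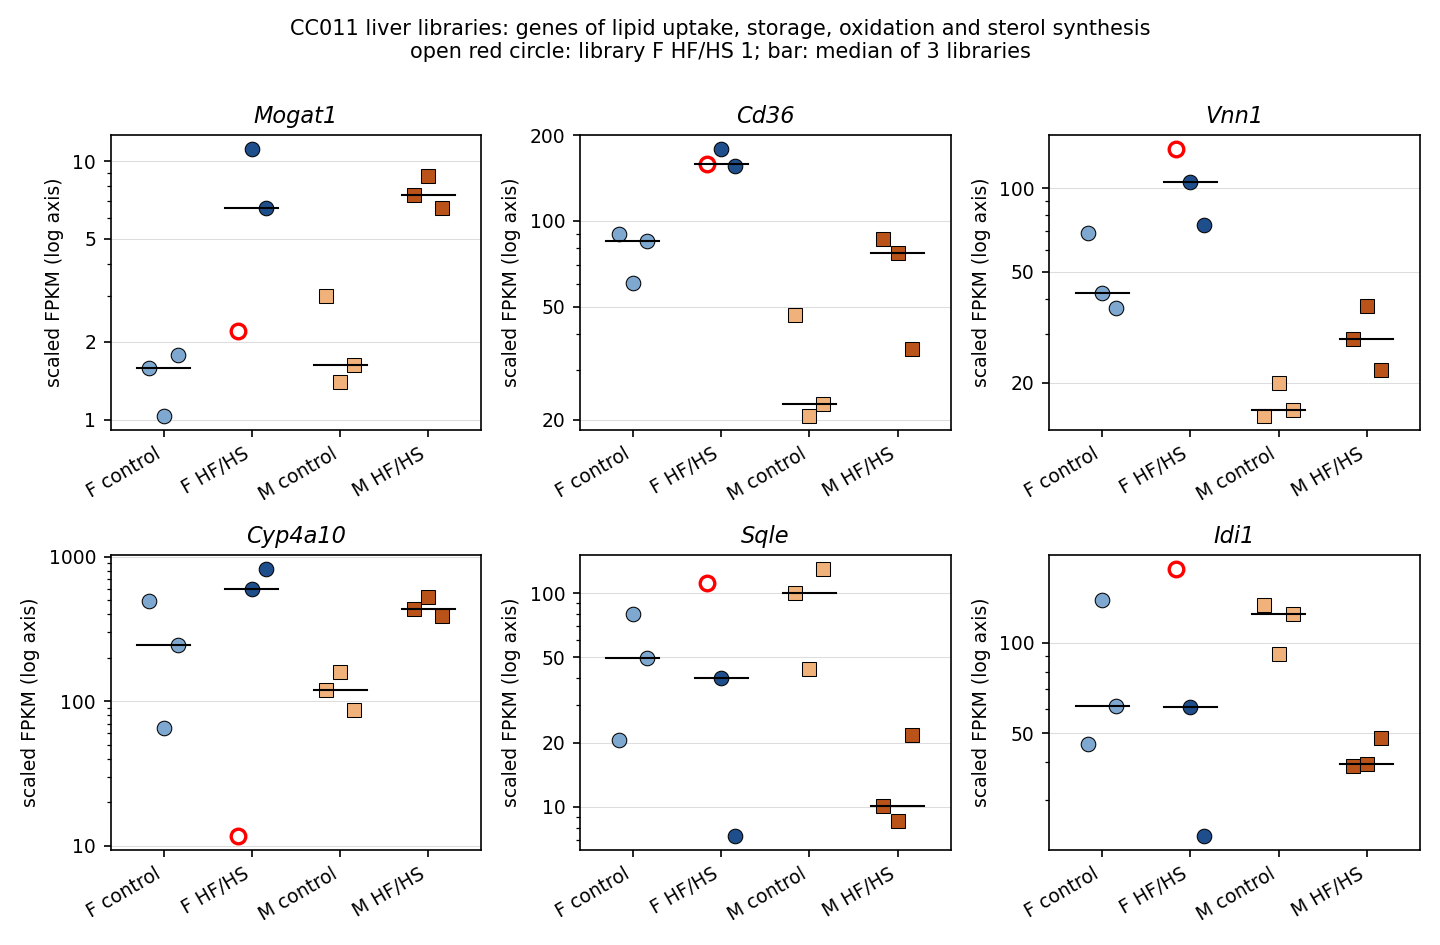
Scaled FPKM on log axes of 6 lipid genes in the 12 CC011 libraries, with 1 point per library, blue circles for females, orange squares for males, and bars at the median of each group. Mogat1, Cd36 and Vnn1 were higher on HF/HS in both sexes apart from single libraries, while the open red circle of F HF/HS 1 lay lowest in Cyp4a10 and highest in Idi1.

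Genes of fatty acid oxidation and PPAR-alpha targets had a median difference of 0.17 over 38 tested members, and of 0.35 without F HF/HS 1. None of the 38 was called for the diet effect in the CC011 fit, with or without F HF/HS 1, while Aldh3a2, Acaa1a and Acaa1b were called higher with the spread of all strains and without that library (names chosen after their values were seen). In males 7 (18.4%) had every HF/HS library above every control and 0 had every one below, against 5.23% and 8.18% of all genes. The female median was 0.03 with all libraries and 0.37 without F HF/HS 1, and it turned to -0.18 without F HF/HS 3, -0.17 without F control 2 and -0.10 without F HF/HS 2. Females without F HF/HS 1 had 20 of 38 above, beside 14.3% of all genes. Both conditions held for 4 of the 38, beside 0.795% of all genes. Among these were Cyp4a10, which hydroxylates fatty acids at their far end, Vnn1, the pantetheinase, and Aldh3a2, a fatty aldehyde dehydrogenase. Cyp4a10 had 496, 65.1 and 247 in F control and 11.7, 596 and 827 in F HF/HS. In males it had 121, 159 and 87.0 on control and 437, 525 and 387 on HF/HS. Males did not overlap, and F HF/HS 1 was the lowest of all 12. Its difference was 0.89 ± 0.99 with all libraries (adjusted p = 0.999) and 1.86 ± 0.44 without that library (adjusted p = 0.335). Vnn1 had 68.7, 42.0 and 37.1 in F control, 138.8, 105.2 and 73.9 in F HF/HS, 15.1, 20.0 and 15.96 in M control and 28.6, 37.6 and 22.2 in M HF/HS. Neither sex overlapped, and here F HF/HS 1 was the highest of the 12. The Vnn1 difference was 0.91 ± 0.20 (adjusted p = 0.527). The library F HF/HS 1 was lowest in 25 of the 38 members, beside 31.1% of all genes tested.

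The genes of cholesterol synthesis were lower on HF/HS in males in all 22 members of the list. All 22 genes of the list were tested, and none was called for the diet effect or in either sex in the CC011 fits with 12 libraries. Their median difference was -0.82 in males, where the median over all genes was -0.02. In males 17 of 22 (77.3%) had every HF/HS library below every control, beside 8.18% of all genes. In females 1 of 22 did so, beside 6.40% of all genes, or 9.92% where F HF/HS 1 is left out, and the median was -0.19 with and -0.31 without F HF/HS 1. It was 0.14 without F HF/HS 3 and 0.01 without F control 2, so single libraries turned its direction. The median in the 9 other strains was -1.28, with 21 of 22 members called lower there (15.7% of all genes were called lower).

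Sqle, the squalene epoxidase, and Idi1, the isopentenyl diphosphate isomerase, were chosen after their values were seen. Sqle (chr15:59315091-59331193) had 99.5, 44.1 and 129.9 in M control and 10.1, 8.59 and 21.6 in M HF/HS. In females it had 20.5, 80.1 and 49.8 on control and 111, 40.1 and 7.29 on HF/HS. The male groups did not overlap, and the female groups overlapped widely, with both the lowest and the highest female value on HF/HS. The male difference was -2.65 ± 0.89 (adjusted p = 0.988), and it passed with the spread of all strains (adjusted p = 0.041) and with library weights. The difference between the sexes was -2.24 ± 1.26 (adjusted p = 0.659), so it is not shown that males and females differed. That difference includes F HF/HS 1, which held the highest female value. Over both sexes the Sqle diet difference was -1.53 ± 0.69 with that library (adjusted p = 0.999). Without it the difference was -2.04 ± 0.58 (adjusted p = 0.545). Idi1 had 134, 92.0 and 125 in M control and 38.9, 39.3 and 48.2 in M HF/HS, against 45.9, 139 and 61.3 in F control and 176, 61.1 and 22.6 in F HF/HS. The female spread lay within the groups: over the 22 genes the median deviation from each gene's mean over the 12 libraries was -0.49, 0.39 and 0.07 in F control and 0.32, 0.01 and -0.83 in F HF/HS. In males it was 0.70, 0.22 and 0.70 on control and -0.39, -0.37 and -0.21 on HF/HS.

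**Figure D2:**
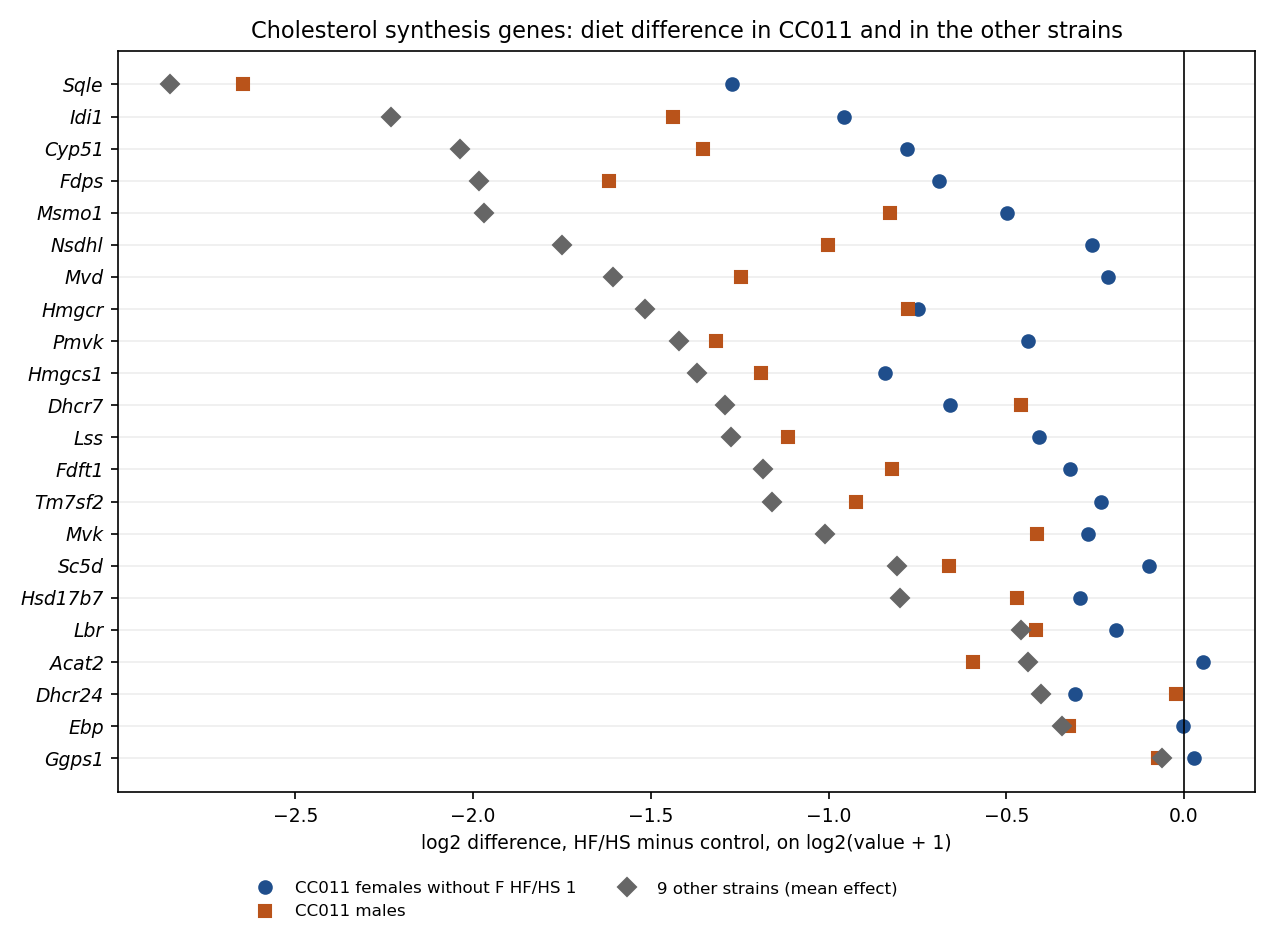
Log2 difference between HF/HS and control for each of the 22 cholesterol synthesis genes, in CC011 males (squares), CC011 females without F HF/HS 1 (circles) and as the mean of the 9 other strains (diamonds). Most genes lay furthest left in the other strains, as for Msmo1 at -1.97 against -0.83 in CC011 males, and nearest 0 in CC011 females.

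Promoters of this list share a sequence feature. Of the 22 genes, 17 had a promoter window in the RefSeq table (build GRCm38.p6, 250 bases before to 50 after the start, both strands searched). The CCAAT box, the letters bound by NF-Y, was in the window of 16 of the 17 (94.1%), against 42.9% of the 8895 tested genes with a window and 37.4% of all 32851 windows. The SREBP letters TCACNCCAC were in 1 of the 17, against 1.495% of the tested genes. A match of letters is a description of the window, not a measured site. The 250 bases before the start are shown for Msmo1, whose diet difference was called as unlike that of the other strains, and for Hmgcs1, the member that holds both motifs, chosen after its values were seen. Capitals mark CCAAT boxes, which read ATTGG on the opposite strand, and in Hmgcs1 also the SREBP letters TCACCCCAC, which begin 137 bases before the start. The Msmo1 stretch is chr8:64733579-64733828 on the minus strand, and the Hmgcs1 stretch is chr13:119690101-119690350 on the plus strand.
Msmo1: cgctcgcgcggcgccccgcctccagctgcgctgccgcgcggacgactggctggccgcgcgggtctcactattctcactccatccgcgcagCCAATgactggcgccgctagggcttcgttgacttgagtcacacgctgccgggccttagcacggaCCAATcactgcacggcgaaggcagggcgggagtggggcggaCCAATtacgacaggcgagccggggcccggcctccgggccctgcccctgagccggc
Hmgcs1: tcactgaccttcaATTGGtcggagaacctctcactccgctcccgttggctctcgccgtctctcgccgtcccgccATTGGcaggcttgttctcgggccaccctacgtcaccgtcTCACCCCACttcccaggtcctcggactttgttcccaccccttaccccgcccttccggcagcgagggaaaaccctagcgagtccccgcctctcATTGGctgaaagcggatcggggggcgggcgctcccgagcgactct
The Msmo1 stretch holds 3 CCAAT boxes, 160, 96 and 55 bases before the start. Hmgcs1, the synthase that makes HMG-CoA, had 120.1, 59.6 and 108 in M control and 42.0, 46.3 and 32.2 in M HF/HS, without overlap. In females it had 66.6, 133 and 120.04 on control and 228, 80.3 and 39.8 on HF/HS, with F HF/HS 1 the highest of all 12.

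Fatty acid synthesis genes had a median difference of -0.59 over 23 tested members, which was -0.23 without F HF/HS 1. In males the median was -0.47, and 4 of 23 (17.4%) had every HF/HS library below every control, beside 8.18% of all genes. The median deviation from each gene's mean was 1.34, -0.0022 and 1.29 in M control and 0.23, -0.10 and 0.22 in M HF/HS. By this measure M control 2 lay within the range of M HF/HS. The female median was -0.59, and -0.0019 without F HF/HS 1, with 11 members higher and 12 lower. In 21 of the 23 the lowest of the 12 libraries was F HF/HS 1, beside 31.1% of all genes. Acly, which makes cytosolic acetyl-CoA from citrate, had 703, 329 and 1025 in M control against 249, 183 and 203 in M HF/HS. In females it had 116, 224 and 277 on control and 70.5, 303 and 121 on HF/HS, so that the male groups were apart and the female groups overlapped.

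With the spread of all strains, further genes passed for the diet effect and are shown after their values were seen. Adam11, a member of a family of membrane proteins with a metalloprotease-like domain, had 1.98, 2.13 and 1.82 in F control, 1.82, 4.21 and 7.65 in F HF/HS, 3.34, 3.88 and 2.73 in M control and 7.59, 7.44 and 13.9 in M HF/HS. Except for F HF/HS 1, each HF/HS library lay above the controls of its sex (1.01 ± 0.20, adjusted p = 0.00792, and 0.67 in the CC011 fit). Pdzk1ip1, a small membrane protein gene, had 2.69, 4.52 and 5.14 in F control, 1.70, 1.11 and 0.461 in F HF/HS, 12.5, 2.70 and 17.7 in M control and 0.868, 1.34 and 0.658 in M HF/HS. Neither sex overlapped, F HF/HS 1 included, and the diet difference was -1.82 ± 0.38 in the CC011 fit (adjusted p = 0.527; 0.00203 with the spread of all strains). Prss8, a membrane-anchored serine protease, had 4.31, 5.18 and 4.46 in F control, 3.25, 2.31 and 1.11 in F HF/HS, 10.7, 4.81 and 12.3 in M control and 2.19, 1.74 and 3.74 in M HF/HS. Prss8 too was lower in every HF/HS library than in the controls of its sex (-1.17 ± 0.25, adjusted p = 0.527; 0.00923 with the spread of all strains).

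In males the fit on CC011 libraries called 1 gene (0.00837%), the row Atp6v0c-ps2 described below. Tcf24, a transcription factor gene chosen after its values were seen, had 3.85, 4.16 and 4.58 in M control and 0.892, 0.739 and 0.924 in M HF/HS. It did not pass with all libraries (-1.49 ± 0.19, adjusted p = 0.0683) and was called without F HF/HS 1 (adjusted p = 0.011), without F HF/HS 3 and in the male libraries alone (adjusted p = 0.00725). The male values are the same in these fits, and the estimate of the spread differs. With the spread of all strains 19 genes were called in males (0.162%), 6 higher (0.0510%) and 13 lower (0.111%). Among those that fell there, chosen after their values were seen, Fabp5, a fatty acid carrier, had 563, 59.7 and 723 in M control and 24.3, 24.7 and 50.6 in M HF/HS (-3.18 ± 0.69, adjusted p = 0.0228). Tff3, a secreted trefoil peptide, had 1273, 709.6 and 838 in M control and 199, 122 and 322 in M HF/HS (-2.20 ± 0.50, adjusted p = 0.0249). G6pdx, the entry enzyme of the pentose phosphate pathway that supplies NADPH, had 21.4, 5.20 and 32.7 in M control and 3.97, 2.71 and 2.73 in M HF/HS (-2.03 ± 0.44, adjusted p = 0.0197). None of the 3 overlapped, and in Fabp5 and G6pdx the library M control 2 lay far below the other controls. The same library had the lowest Sqle, Fasn and Acly of the male controls. In the CC011 fit their adjusted p was 0.988.

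Xenobiotic metabolism genes, which clear drugs and steroids, had a median difference of 0.48 in males over 25 tested members, and 6 of 25 (24%) had every HF/HS library above every control, beside 5.23% of all genes. The female median was -0.73, with 22 of 25 members lower on HF/HS, and 0.18 without F HF/HS 1. Over both sexes it was -0.03 with and 0.27 without that library. Cyp2b9, a cytochrome P450 with much higher values in females, had 6.09, 15.99 and 7.63 in M control and 24.9, 59.1 and 61.2 in M HF/HS, and 775, 408 and 682 in F control against 89.8, 629.7 and 765 in F HF/HS. Males did not overlap, and F HF/HS 1 had the lowest female value. Cyp2c29 had 1680, 1937 and 1344 in M control against 2825, 2896 and 2379 in M HF/HS, and 951, 569 and 941 in F control against 107, 1358 and 1529 in F HF/HS. Females without F HF/HS 1 had 4 of 25 members (16%) with every HF/HS library above every control, beside 14.3% of all genes. In 2 members (8%) every one lay below, beside 9.92%. Apart from F HF/HS 1, the HF/HS libraries of both sexes lay above the controls of their sex for 3 members. These were Cyp2c29, Cyp2b10 and Cyp2c55, beside 0.795% of all genes.

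In females the fit with 12 libraries called 2 genes, Prok1 and Atp6v0c-ps2, both lower (0.0167%). Leaving out F HF/HS 1 gave 13 (0.109%), 2 higher (0.0167%) and 11 lower (0.0921%). Prok1, a secreted prokineticin, had 3.49, 2.53 and 3.98 in F control and 0.470, 0.764 and 0.206 in F HF/HS. It had 1.15, 0.986 and 0.888 in M control and 0.467, 0.481 and 0.592 in M HF/HS. Every HF/HS library lay below every control within each sex, F HF/HS 1 included. Prok1 fell by 1.55 ± 0.16 on the log2 scale in females (adjusted p = 0.00935). The call was lost without F control 1 (adjusted p = 0.0604), without F control 3 (0.0735) and with the spread of all strains (0.141). The male minus female difference was 1.14 ± 0.23 (adjusted p = 0.659).

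Serpina3k and F11 were not called in females with all 12 libraries and were called when F HF/HS 1 was left out. Serpina3k (chr12:104338485-104345739), a serine protease inhibitor secreted by hepatocytes, had 12477, 12713 and 12494 in F control and 11040, 3678 and 3228 in F HF/HS. Males had 15313, 18248 and 12125 on control and 15498, 15042 and 11517 on HF/HS. Only F HF/HS 2 and F HF/HS 3 were low, and F HF/HS 1 lay near the controls. The female difference was -1.31 ± 0.40 (adjusted p = 0.761) and, without F HF/HS 1, -1.87 ± 0.21 (adjusted p = 0.00602). The gene belongs to a cluster of near-identical copies, so reads may have been split among them. F11, coagulation factor XI, had 50.2, 56.3 and 53.6 in F control and 99.99, 26.2 and 22.7 in F HF/HS, and 25.3, 35.0 and 26.6 in M control against 34.3, 39.9 and 36.4 in M HF/HS. In F HF/HS 1 it was the highest of the 12, and in the other F HF/HS libraries it was below F control. It fell by 1.10 ± 0.14 in females without F HF/HS 1 (adjusted p = 0.0127), and the male minus female difference was 1.45 ± 0.19 (adjusted p = 0.018). With 12 libraries these differences were -0.43 ± 0.43 and 0.78 ± 0.61 (adjusted p = 0.796 and 0.692).

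**Figure D3:**
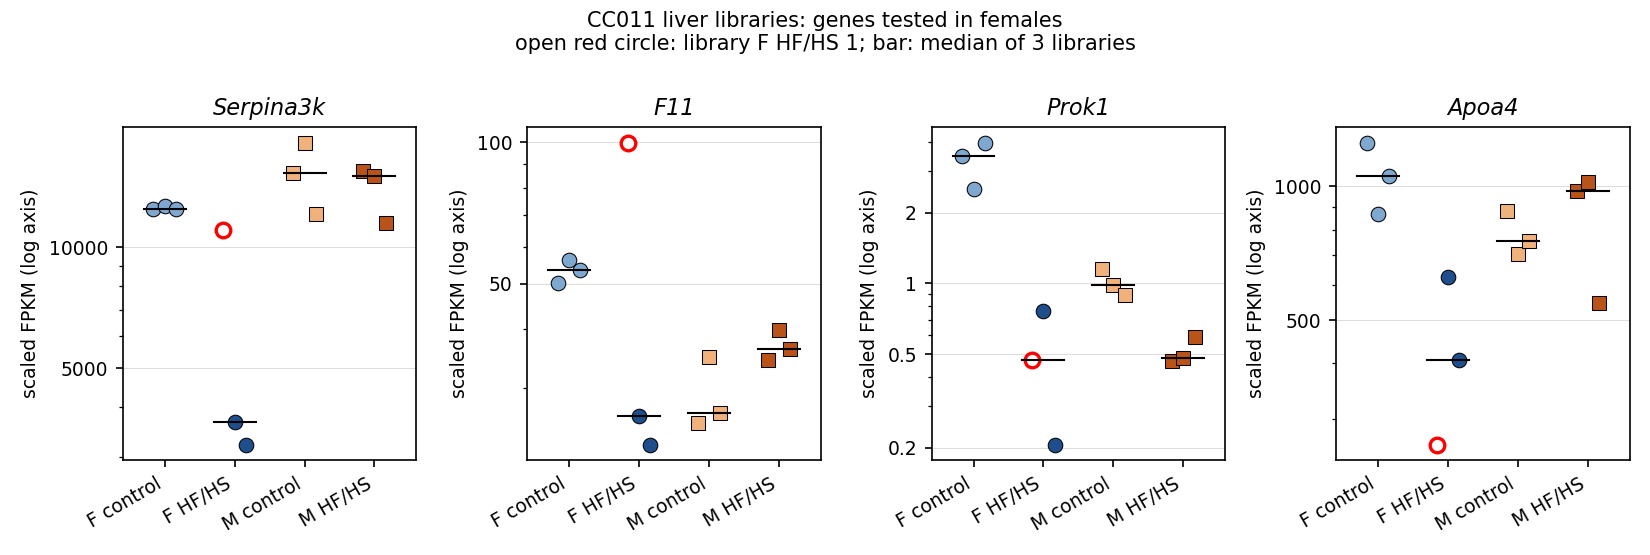
Scaled FPKM on log axes of 4 genes in the 12 CC011 libraries (points, with bars at group medians). F HF/HS 1, the open red circle, lay with the other F HF/HS libraries in Prok1 and Apoa4, near F control in Serpina3k, and above all libraries in F11.

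For the difference between the sexes, 1 gene was called with 12 libraries (0.00837%) and 10 without F HF/HS 1 (0.0837%). Of these 9 had a larger HF/HS minus control difference in males (0.0754%). Besides F11 these included Adora1, the adenosine A1 receptor gene, with 9.14, 7.57 and 9.06 in F control, 11.6, 4.15 and 4.35 in F HF/HS, 4.38, 3.82 and 3.15 in M control and 5.13, 6.13 and 6.61 in M HF/HS. Its difference was 1.41 ± 0.19 without F HF/HS 1 (adjusted p = 0.021). Several other calls were rows listed at 0 in whole groups. Mup7 and Mup14, major urinary protein genes with many near-identical neighbours, were listed at 749.9 to 847 and at 2296 to 2794 in F control, at 371 and 1179 in F HF/HS 1, and at 0 in the other F HF/HS and all male libraries. A 0 in these files can be a failed estimate: Alb was at 22786 in F HF/HS 1 and at 0 in the other 11 libraries. Atp6v0c-ps2 spans nearly the same bases as Atp6v0c (chr17:24163865-24169429). It was at 6.63 to 9.41 in F control and at 6.78 to 13.1 in M HF/HS, and at or under 0.0401 in F HF/HS and M control. Atp6v0c itself had 115 to 149 in all 12. How the authors' counting split the reads of this pair was not tested.

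Interferon-induced genes, which cells switch on when they sense viral nucleic acid, lay higher on HF/HS in some members. The list had 32 tested members, none called for the diet effect in the CC011 fit, with a median difference of 0.29, and of 0.17 without F HF/HS 1. The female median was 0.57, and 0.38 without F HF/HS 1. In males it was 0.02, with 17 members higher and 15 lower. In females 8 of 32 (25%) had every HF/HS library above every control, beside 5.34% of all genes, and in males 4 (12.5%), beside 5.23%. Females without F HF/HS 1 had 10 of 32 above (31.25%), beside 14.3% of all genes. Ifit1, which binds RNA lacking the host's cap, had 5.90, 5.74 and 6.02 in F control, 9.35, 8.48 and 10.6 in F HF/HS, 2.93, 3.34 and 3.32 in M control and 3.74, 6.26 and 6.34 in M HF/HS. The diet groups did not overlap in either sex. The Ifit1 difference was 0.60 ± 0.11 (adjusted p = 0.48) and Ifit1 was called in 1 of the fits that left out a library, without M HF/HS 1 (adjusted p = 0.0301). Ifit3 had 9.14, 9.84 and 9.500 in F control, 16.1, 13.6 and 13.5 in F HF/HS, 5.20, 5.37 and 5.52 in M control and 6.90, 8.66 and 6.56 in M HF/HS, and its difference was 0.47 ± 0.08 (adjusted p = 0.346). In the 9 other strains the mean Ifit1 difference was -0.02 ± 0.07 (adjusted p = 0.87), and CC011 minus those strains was 0.61 ± 0.23 (adjusted p = 0.692). The highest library in 25 of the 32 members was F HF/HS 1, beside 21.4% of all genes. The list's median deviation from each gene's mean was -0.15, 0.44 and -0.04 in F control and 1.21, 0.55 and 0.23 in F HF/HS. By this measure F control 2 lay above F HF/HS 3.

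F HF/HS 1 itself is described without a test, since it was singled out by these values. It was the highest of the 12 libraries in 27 of 30 tested members of the positive acute-phase list, beside 21.4% of all genes. Saa1, a serum amyloid A gene, had 99007 there, against 4107 and 417 in the other F HF/HS libraries, 189, 7489 and 242 in F control, 696, 41.2 and 738 in M control and 133, 90.8 and 98.05 in M HF/HS. Saa3 was at 47077, against 6.31 to 122 in the other 11, a ratio of 2584 to their median. Saa2 was 573 times, Lcn2, an iron-siderophore carrier of innate defence, 221 times, and Mt1, a metallothionein, 887 times the median of the other 11. Fga, a fibrinogen chain, was at 14374 against 2222 to 4658, a ratio of 4.26. Among the 10 genes farthest above every other library were also Mt2, A2m, Cd14, Il1rn, Serpina3i, Atp6v0a4 and the chemokine gene Cxcl1. Hp and Hpx, which encode haptoglobin and hemopexin, were listed at 0 there and at 4007 to 14967 and 2587 to 14116 in the other 11. These zeros may be failed estimates, so no direction is read from them.

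Metabolic genes were low in the same library. Serpina6, the corticosteroid carrier of blood, was at 12.4 against 356 to 668 in the other 11, Car3, a carbonic anhydrase, at 20.8 against 561 to 3904, and Cyp8b1, a bile acid enzyme, at 1.89 against 68.7 to 355. Cps1, the first enzyme of the urea cycle, was at 779 against 2081 to 3058. It was the lowest of the 12 in 19 of 24 genes of the urea cycle and amino acid breakdown and in all 22 tested genes of the respiratory chain, beside 31.1% of all genes.

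The acute-phase genes were not confined to that library. F control 2 had 7489 for Saa1 and 1812 for Orm2, and F HF/HS 2 had 4107 and 508, while the other F control and F HF/HS 3 libraries had 189 to 417 and 77.0 to 169. Over the 30 genes the median deviation was 2.61 in F HF/HS 1, 0.95 in F control 2, 0.36 in F HF/HS 2 and between -0.93 and 0.02 in the other 9. Neutrophil markers were also high in these 3 libraries. Of 13 markers 9 were tested. Over these 9 the median deviation was 2.84 in F control 2, 1.89 in F HF/HS 1 and 1.34 in F HF/HS 2. F HF/HS 1 was the highest library in 5 of the 9, beside 21.4% of all genes. The summed level of the listed markers, tested or not, was 851 in F HF/HS 1, 639 in F control 2 and 248 in F HF/HS 2. It was 4.83 to 29.7 in the other 9. Mpo, which was not tested, was at 1.89, 5.20 and 1.94 in the 3 named libraries and at 0 to 0.0687 elsewhere. The summed level of Kupffer cell markers was 2008, 1389 and 1176 in the same 3 libraries and 128 to 644 in the other 9. All 12 tested Kupffer cell markers were highest in F HF/HS 1, beside 21.4% of all genes. Cd74, the invariant chain of MHC class II, had 448, 379 and 327 in these 3 and 32.1 to 168 elsewhere. Exocrine pancreas markers summed to 40.1 in F control 2 and to at most 0.192 in the other 11. The part of these cells in the diet differences was not tested. The female median difference of the acute-phase list was 0.95 with and 0.08 without F HF/HS 1.

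**Figure D4:**
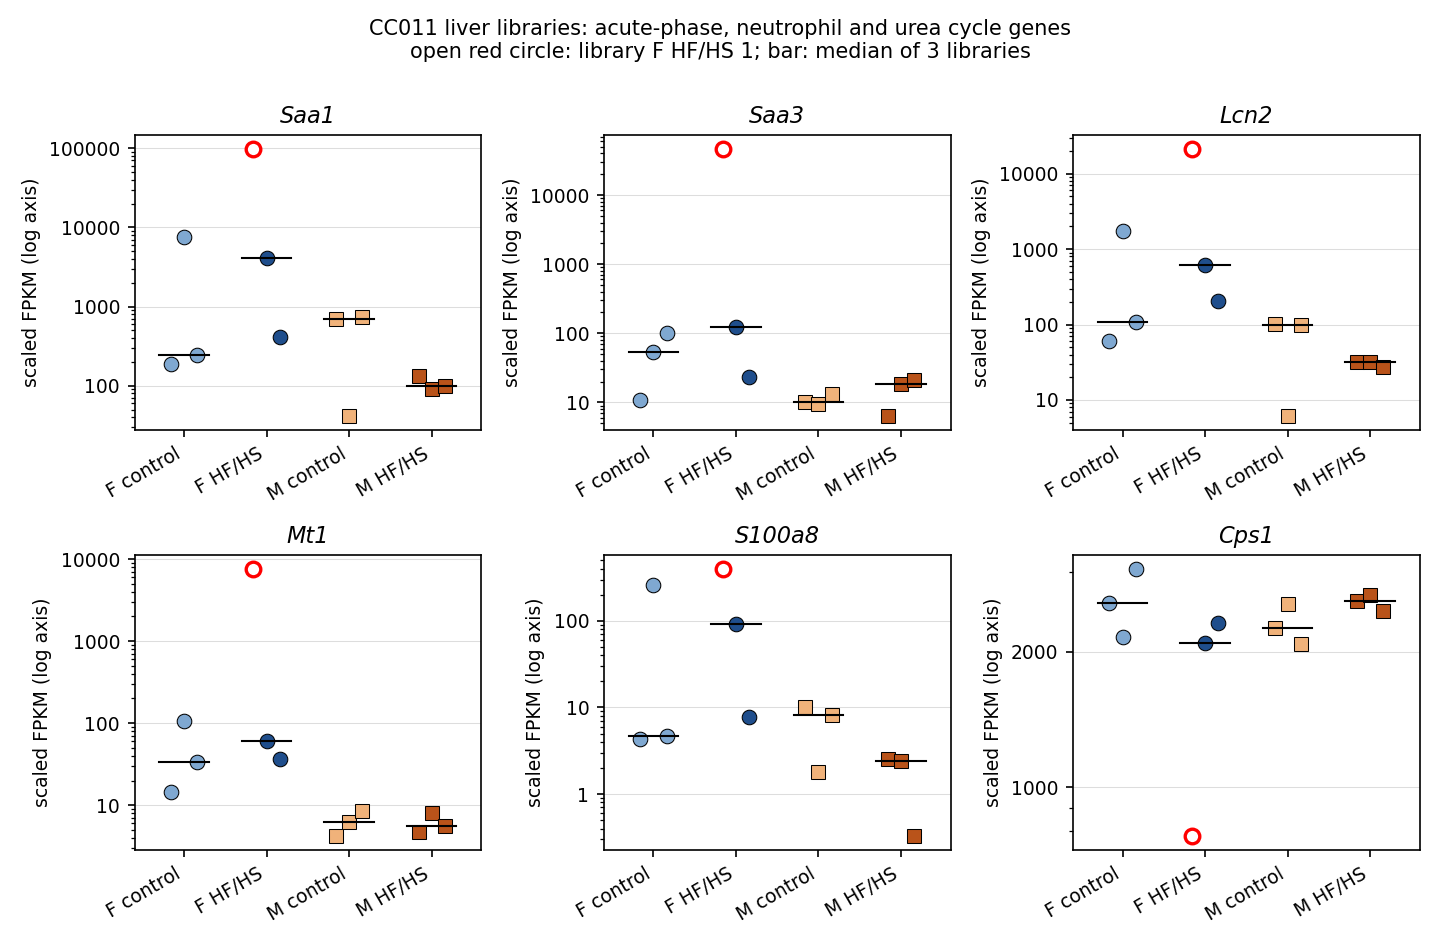
Scaled FPKM on log axes of acute-phase genes (Saa1, Saa3, Lcn2), the metallothionein gene Mt1, the neutrophil gene S100a8 and the urea cycle gene Cps1 in the 12 libraries. F HF/HS 1 (open red circle) was highest in the first 5 and lowest in Cps1, and F control 2 and F HF/HS 2 were the next highest for Saa1, Lcn2 and S100a8.

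The promoter letters of known acute-phase factors were searched in the 24 members of that list with a window. The STAT letters TTCNNNGAA were in 7 of 24 (29.2%), against 8.48% of the tested genes, and the NF-kB letters GGGNN followed by TTTCC in 3 of 24 (12.5%), against 2.02%. The CCAAT box, frequent in the cholesterol list, was in 3 of the 24 (12.5%), and the SREBP letters were in 2 of the 24 (8.33%) against 1 of 17 (5.88%) in the cholesterol list. Steap4, a metalloreductase at 3516 in F HF/HS 1 and at 65.8 to 281 in the other 11, was chosen after its values were seen. Its window holds both the STAT and the NF-kB letters. Its 250 bases before the start are chr5:7960222-7960471 on the plus strand. Capitals mark the NF-kB letters, read as GGAAAACCCC on the opposite strand and beginning 226 bases before the start, and the STAT letters TTCCCGGAA, beginning 116 bases before it.
Steap4: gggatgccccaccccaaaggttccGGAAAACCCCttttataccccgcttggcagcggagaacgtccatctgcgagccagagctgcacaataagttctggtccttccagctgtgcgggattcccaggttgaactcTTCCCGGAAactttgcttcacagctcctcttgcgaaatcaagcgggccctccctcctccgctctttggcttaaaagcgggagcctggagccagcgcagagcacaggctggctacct

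In males the cytokine and NF-kB target list leaned the other way. Its median male difference was -0.38 over 15 tested genes, and 8 of 15 (53.3%) had every HF/HS library below every control, beside 8.18% of all genes. Complement and coagulation genes did so in 8 of 25 (32%). None of these genes was called in males with 12 libraries. The summed Kupffer cell markers of males were 569, 334 and 503 on control and 446, 319 and 128 on HF/HS, and their part in this was not tested.

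**Figure D5:**
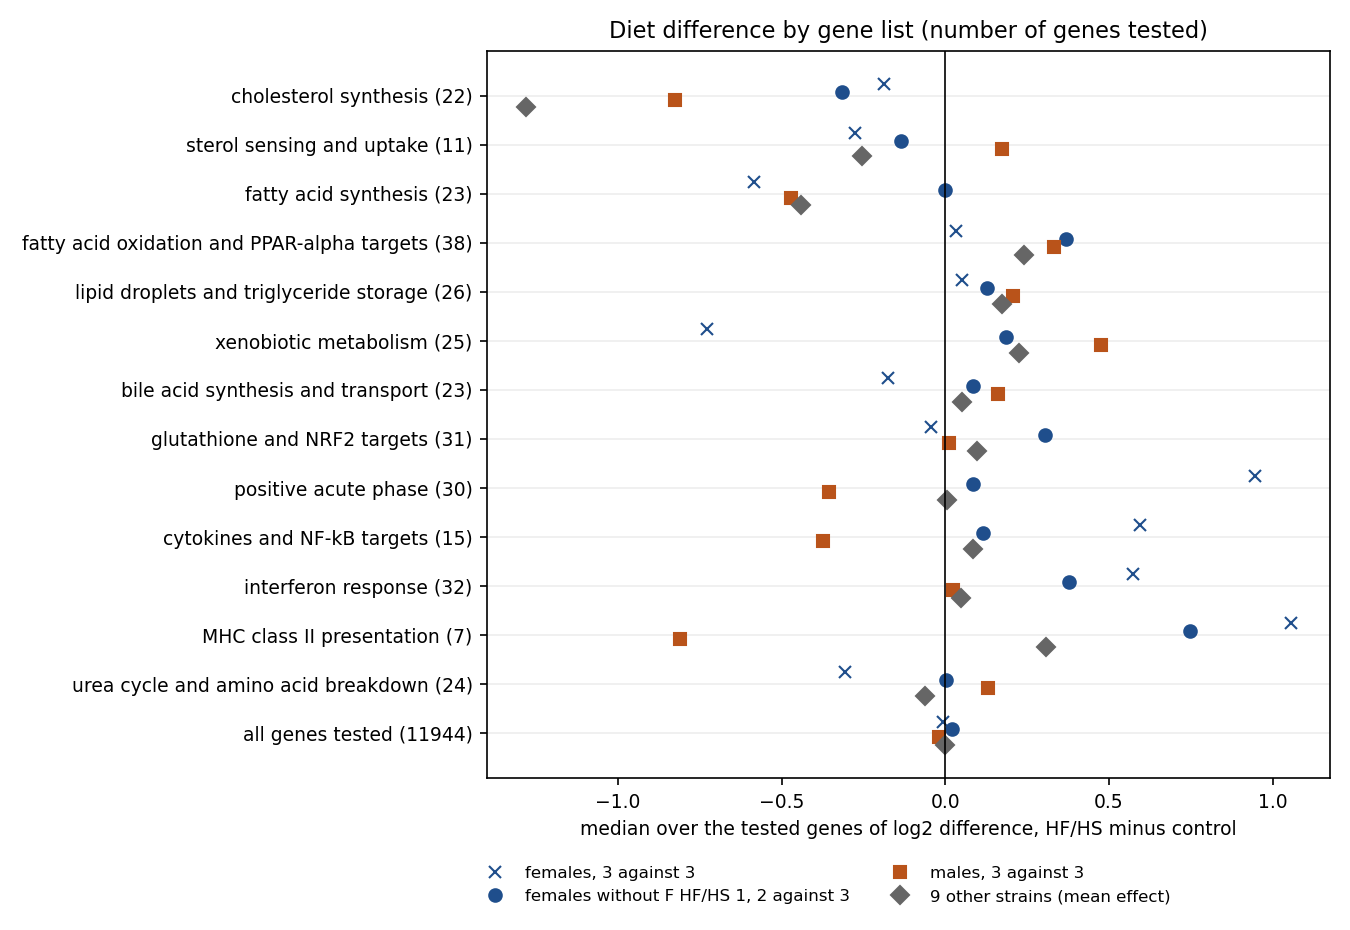
Median log2 difference between HF/HS and control over the tested genes of each list, for CC011 females with F HF/HS 1 (crosses) and without it (circles), CC011 males (squares) and the mean effect of the 9 other strains (diamonds). The acute-phase median of females moved from 0.95 to 0.08 without F HF/HS 1, and the cholesterol synthesis median was lowest in the other strains at -1.28.

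The diet effect of CC011 was also tested against the mean effect of the 9 other strains, and 12 of 11763 genes were called (0.102%), 6 higher (0.0510%) and 6 lower (0.0510%) in CC011. Of these 8 were Mup rows, a row with a Gm number or the small nucleolar RNA row Snord61, which the naming rule passes over or which were mostly listed at 0. Msmo1, the sterol methyl oxidase of cholesterol synthesis, had 61.6, 135 and 86.0 in F control, 262, 87.2 and 45.6 in F HF/HS, 191, 124 and 133 in M control and 77.5, 81.1 and 88.0 in M HF/HS. Males did not overlap, and F HF/HS 1 was the highest of the 12. On HF/HS the strain medians of the 9 others ran from 12.9 to 52.8. The diet difference of CC011 was -0.32 ± 0.38 (adjusted p = 0.999), that of the others -1.97 ± 0.11, and CC011 minus others 1.65 ± 0.34 (adjusted p = 0.0238). The difference between the strains was 1.31 ± 0.35 when F HF/HS 1 was left out (adjusted p = 0.223).

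Apoa4, an apolipoprotein of triglyceride-rich particles, had 1256, 868 and 1054 in F control and 262, 626 and 406 in F HF/HS. It had 880.2, 704 and 756 in M control and 978, 1024 and 546 in M HF/HS. Females did not overlap, with HF/HS below control, and males did. In the 9 other strains Apoa4 rose by 0.70 ± 0.10 (adjusted p = 8.61e-09), and CC011 minus others was -1.35 ± 0.30 (adjusted p = 0.0324), or -1.19 ± 0.31 without F HF/HS 1 (adjusted p = 0.223). Ephx1, microsomal epoxide hydrolase, was at 21.4 in F HF/HS 1 and at 181 to 367 in the other 11. Its difference from the other strains was -1.19 ± 0.26 (adjusted p = 0.0242), and -0.60 ± 0.17 without F HF/HS 1 (adjusted p = 0.47). Hhip, an antagonist of hedgehog signalling, was at 4.69 in F HF/HS 1 and at 1.64 to 2.93 in the other 11, with a difference from other strains of 0.43 ± 0.10 (adjusted p = 0.0423) and of 0.33 ± 0.10 without F HF/HS 1 (adjusted p = 0.627). Each of these 4 calls was lost in 6 or more of the fits that left out a library. All 4 were lost without F control 1, F HF/HS 1, M control 2, M control 3, M HF/HS 2 or M HF/HS 3. Ephx1, Apoa4 and Hhip were also lost without F control 3, Apoa4 and Hhip without M control 1, and Hhip without F control 2. In the fit that left out F HF/HS 1, 12 genes were called as well (0.102%), 4 higher (0.0340%) and 8 lower (0.0680%). Among them were Sema5b, higher in CC011 (0.76 ± 0.16, adjusted p = 0.00842), and Fam25c, lower (-1.44 ± 0.33, adjusted p = 0.0298). Fam25c had 29.9, 82.7 and 32.3 in F control and 55.7, 12.4 and 13.2 in F HF/HS, and 1.49 to 3.02 in all males.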

How the data were processed

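Values came from the deposited table of 24883 genes and 120 columns. Per the submitters' processing notes, TopHat2 2.1.1, Bowtie2 2.2.5.0, Cufflinks 2.2.1 and mm10 were used, with no role or order given. The deposited values are FPKM that the authors rescaled to a common 75th percentile, as the values show. The formula is not given in the sources used here. They are not counts, so no count model was used, and 0 may be a failed estimate. There was 1 row holding a missing value, which was dropped, and 821 rows share a symbol.

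Computed here: log2(value + 1) of genes with a mean of at least 1 was tested with limma 3.58.1 (R 4.3.3; trend and robust prior, two-sided, Benjamini-Hochberg), with sex as a covariate for the diet effect and 1 mean per group for the sexes and their difference. The fit over all strains left out 2 identical CC040 columns. Scripts were tested on simulated data. The members and gene lists were chosen with earlier results of these data known. Named genes were the 5 largest called per direction in each sex and for the sex difference, the 6 largest per direction against other strains, the 10 highest and 5 lowest relative to the other libraries in F HF/HS 1, and any acute-phase gene. Others were chosen after their values were seen. Rows with repeated or provisional symbols or mostly at 0 were passed over. Alternatives covered pseudocount, filter, scaling, prior, library weights, blocks, spread and each library left out.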

Additional observations from a re-analysis of the deposited data

Results flagged for a closer look

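For 48 of the genes shown with values, the library farthest out was looked for among the 6 HF/HS libraries of both sexes and among the 6 controls. The gap to the nearest library was divided by the range of the group, on log2(value + 1), and a share above Dixon's critical value for 6 values was taken as apart. Of 96 groups 23 had a library apart, and in 17 of them it was F HF/HS 1. Chance gives about 5% of groups, but many of these genes were chosen because F HF/HS 1 stood apart in them, so the count describes that library and is not a test.

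Among the HF/HS libraries F HF/HS 1 was lowest for Hp (0.937) and Hpx (0.892), both listed at 0 there, which may be failed estimates. F HF/HS 1 was also lowest for Ephx1 (0.888), Serpina6 (0.851), Car3 (0.835), Cyp4a10 (0.819), Cps1 (0.801), Cyp2c29 (0.770), Cyp8b1 (0.661) and Mogat1 (0.644). It was highest for Cd14 (0.735), Steap4 (0.718), Hhip (0.700), Saa3 (0.678), Mt1 (0.669), Fga (0.666) and Msmo1 (0.626). F control 2 was highest among controls for Mpo (0.964), Cd14 (0.744), S100a8 (0.696), Cd74 (0.654), Steap4 (0.642) and Hpx (0.630).

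The diet effect of CC011 differed from the mean of the 9 other strains, by the test of that difference, for Msmo1 (1.65), Hhip (0.43), Apoa4 (-1.35) and Ephx1 (-1.19). Without F HF/HS 1 they were 1.31, 0.33, -1.19 and -0.60, and none passed.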

How the results depend on the processing

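No single gene followed under the alternatives changed the sign of its difference. Of the counts of calls under alternatives, 68 were equal or close to the main count and 56 were not. Among the list medians 16 values, from 4 of the 14 medians followed, changed sign. The diet median of the acute-phase list went from 0.26 to -0.22 without F HF/HS 1, -0.08 with library weights, -0.20 with the spread of all strains without that library, and -0.02 without F HF/HS 1 and F control 2. The xenobiotic median went from -0.03 to between 0.01 and 0.27 in 6 settings, the highest without F HF/HS 1. In females the cholesterol synthesis median went from -0.19 to 0.14 without F HF/HS 3 and 0.01 without F control 2, and the fatty acid oxidation median from 0.03 to -0.18, -0.17 and -0.10 without F HF/HS 3, F control 2 or F HF/HS 2. Leaving out each library in turn gave 0 to 2 called genes for the diet effect (2 without F HF/HS 1, 1 without M HF/HS 1), 1 to 13 in females (13 without F HF/HS 1, 1 without F control 3, 4 without F HF/HS 2 or F HF/HS 3), 1 to 4 in males (4 without M HF/HS 1, 2 without F HF/HS 1, F HF/HS 3, M control 2, M HF/HS 2 or M HF/HS 3), 1 to 10 for the sex difference (10 without F HF/HS 1, 4 without M HF/HS 1, 3 without F HF/HS 3, 2 without F control 1, M HF/HS 2 or M HF/HS 3) and 0 to 63 against the other strains (63 without F HF/HS 3, 41 without F HF/HS 2, 4 without F control 1 or M control 1, 1 without M control 2, 0 without M control 3, M HF/HS 2 or M HF/HS 3). Library weights, which lower the influence of deviating libraries, gave 16, 51, 135, 60 and 619 for the diet effect, females, males, the sex difference and the other strains. The spread of all strains gave 25, 46, 19 and 21 for the first 4, and 40, 13, 24 and 9 without F HF/HS 1. The fits with the spread of all strains other than 25, and those that left out F HF/HS 1 with F control 2 were chosen after seeing the data. Leaving out these 2 libraries gave 1 for the diet effect, 17 in females and 13 for the sex difference. A pseudocount of 0.1 gave 1 in females and 2 in males. A mean of at least 5 gave 0 in females, males and the sex difference, and no filter gave 2 in males, 2 for the sex difference and 20 against the other strains. Size factors gave 2 in males, female libraries alone 1, male libraries alone 5, and all 120 columns 0 against the other strains. The cause of these changes was not tested.

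With the library number as a replicate block, 0 genes were called for the diet effect, 1 in females (Prok1 lost, adjusted p = 0.407), 1 in males, 1 for the sex difference and 0 against the other strains. Same-numbered libraries did not deviate together (r of -0.22, -0.124 and 0.237 in females and 0.12, -0.203 and -0.0313 in males), so the numbers are not taken to pair samples. Of the values of single named genes under alternatives, 958 stayed on their side of the threshold, 74 came to pass and 55 no longer passed. The main diet fit called 0 genes, so its genes could only stay uncalled or come to pass. The 55 could come only from genes called in a main fit, so the 958 do not measure how stable the calls were. The acute-phase median of females moved from 0.95 to 0.08 without F HF/HS 1. With 3 libraries a group and unknown depth, differences of single genes that stayed below the threshold are not shown to be absent.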
